A study of Oryza sativa with 4 samples.

Results

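The peaks examined here lie in the first 9 Mb of rice chromosome 4 and the first 8 Mb of rice chromosome 10, called the short arms below. Members were chosen by position alone, as peaks whose centre fell in these 17 Mb. There were 942 of them among 31683 peaks in all, made up of 859 of 28323 OsbZIP42 peaks, 31 of 1107 OsbZIP69 peaks, 45 of 2059 OsbZIP77 peaks and 7 of 194 HALO-GST peaks. They were compared with the rest of chromosomes 4 and 10, which held 3264 OsbZIP42, 129 OsbZIP69, 228 OsbZIP77 and 21 HALO-GST peaks.

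DAP-seq (DNA affinity purification sequencing) mixes a tagged transcription factor with purified, fragmented genomic DNA and sequences what is retained. Leaf DNA of the Nipponbare cultivar was used for every library, and the proteins carried a HALO tag and were made in rabbit reticulocyte lysate. The groups were OsbZIP42 (labelled OsBZIP42 and HBF1), OsbZIP69 (OsBZIP69, FD4), OsbZIP77 (OsBZIP77, FD1) and HALO-GST, a tagged glutathione S-transferase that serves as the negative control. Each group held 1 library, so no difference between proteins has a replicate check.

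bZIP proteins grip DNA as dimers through a basic region next to a leucine zipper, and those of the FD type bring florigen, a mobile signal for flowering, to its target genes. The short arms of rice chromosomes 4 and 10 are known from cytology as heterochromatic, that is, densely packed, rich in transposons and poor in genes. DAP-seq is done on DNA without nucleosomes, and native DNA keeps its cytosine methylation. The files hold no measure of heterochromatin, methylation, repeats or centromere position, so the label could not be checked against them and the arms are defined by their coordinates, in the build the authors used.

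All 3 bZIP proteins had fewer peaks per Mb in the short arms than in the rest of the same chromosomes. OsbZIP42 had 50.5 peaks per Mb there (95% interval 47.2 to 54.0) against 78.3 (75.6 to 81.0), a ratio of 0.645 (0.598 to 0.696). OsbZIP69 had 1.82 (1.24 to 2.59) against 3.09 (2.58 to 3.68), a ratio of 0.589 (0.385 to 0.878). OsbZIP77 had 2.65 (1.93 to 3.54) against 5.47 (4.78 to 6.23), a ratio of 0.484 (0.343 to 0.669). The arms made up 4.56% of the length spanned by the peaks of all 12 chromosomes, but held 3.03% of the OsbZIP42, 2.80% of the OsbZIP69 and 2.19% of the OsbZIP77 list.

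The intervals are exact and cover the counting of peaks only. Peaks of 1 library are not replicates, so no p-value is given, and intervals are not adjusted for the number of comparisons. OsbZIP42 counts in 1 Mb windows also varied more than independent placement would give: their variance was 3.39 times their mean in the arms and 12.5 times in the rest, so the intervals for OsbZIP42 density understate the error. For OsbZIP77 it was 1.60 times in the arms and 1.73 in the rest, and for OsbZIP69 0.565 and 1.30. Their density intervals may therefore be too narrow as well, though by less. Densities are not corrected for repeated sequence without uniquely placed reads, and its part in the low density was not tested. The HALO-GST list had 0.412 peaks per Mb in the arms (0.166 to 0.848) and 0.504 in the rest (0.312 to 0.770). Its ratio of 0.817 had an interval from 0.294 to 1.996, too wide to tell whether the control shared the deficit.

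The deficit of OsbZIP42 was present on each chromosome and was larger on chromosome 4. The arm of chromosome 4 held 398 OsbZIP42 peaks, or 44.2 per Mb, which was 0.567 of its rest (0.508 to 0.631). The arm of chromosome 10 held 461, or 57.6 per Mb, which was 0.731 of its rest (0.655 to 0.815). Set directly against each other, the arm of chromosome 4 had 0.767 times the density of the arm of chromosome 10 (0.669 to 0.879), while the rests of the chromosomes were close, at 78.0 and 78.8 per Mb.

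OsbZIP77 was lower than the rest in both arms, with 18 peaks on chromosome 4 (ratio 0.402, 0.231 to 0.660) and 27 on chromosome 10 (0.534, 0.335 to 0.825). OsbZIP69 had 14 peaks in the arm of chromosome 10, a ratio of 0.466 (0.240 to 0.847). On chromosome 4 alone its 17 peaks gave a ratio of 0.695 with an interval from 0.384 to 1.19, which includes no difference. The number of OsbZIP69 peaks divided by that of OsbZIP77 peaks was 0.944 in the arm of chromosome 4 (17 to 18) and 0.545 in its rest (72 to 132). The odds ratio between these, 1.73, had an interval from 0.784 to 3.80 and so did not separate the proteins.

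**Figure D1:**
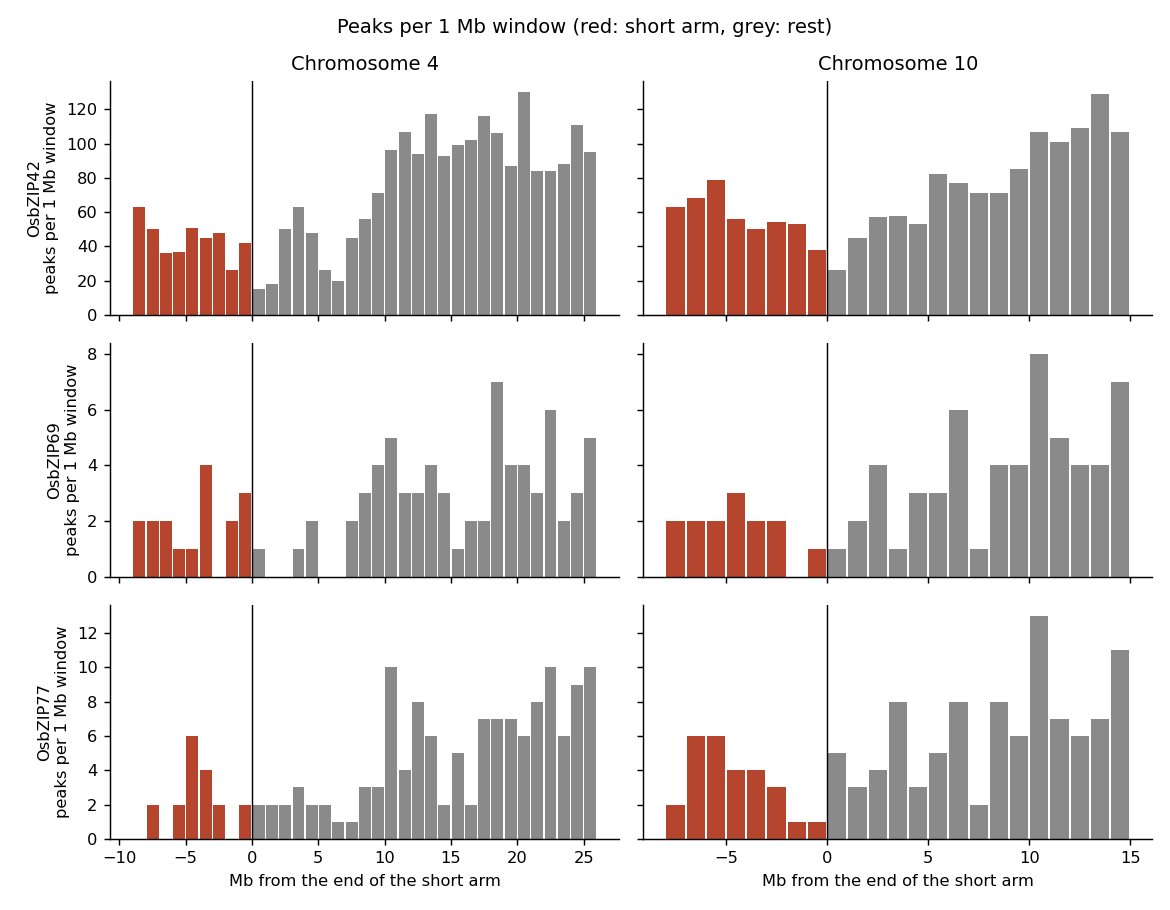
Peaks in whole 1 Mb windows of chromosome 4 (left) and chromosome 10 (right) for OsbZIP42, OsbZIP69 and OsbZIP77, plotted against the distance in Mb from the end of the short arm; red bars are the arm and grey bars the rest. OsbZIP42 counts ran from 26 to 79 in the arms, fell to 15 and 26 in the first window beyond them, and reached 130 and 129 far from the arms.

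Window by window, the low density held along the arm of chromosome 4 and most of that of chromosome 10. The 17 arm windows had a median of 50 OsbZIP42 peaks, with a lowest of 26 on chromosome 4 from 7 to 8 Mb and a highest of 79 on chromosome 10 from 2 to 3 Mb. The 41 whole windows of the rest had a median of 84, and 17 of the 17 arm windows lay below it. Of these 17, 16 also lay below 78.5, the median of the 308 whole windows on the 10 other chromosomes. The exception, with 79 peaks, also exceeded 77, the median of the 15 whole windows in the rest of chromosome 10 alone. The ranges still overlapped, since windows of the rest ran from 15 to 130 and no arm window was below the lowest of them.

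Along chromosome 4 the arm held, in order from the end of the chromosome, 63, 50, 36, 37, 51, 45, 48, 26 and 42 OsbZIP42 peaks. Along chromosome 10 it held 63, 68, 79, 56, 50, 54, 53 and 38. The sparsest arm window of chromosome 10 was its last, and that of chromosome 4 was the last but one. The windows just past the boundary were sparser still, with 15 and then 18 peaks on chromosome 4 and 26 on chromosome 10. The last OsbZIP42 centre inside the arm of chromosome 4 was at 8873570, with a signal of 36, and the first outside at 9075889, with a signal of 11. On chromosome 10 these centres were at 7944192 (signal 48) and 8197218 (signal 20).

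OsbZIP69 had 0 to 4 peaks per arm window and was without a peak from 6 to 7 Mb on either chromosome. OsbZIP77 had 0 to 6, and its 3 empty windows were all on chromosome 4, from 0 to 1, 2 to 3 and 7 to 8 Mb. With medians of 2 peaks per arm window for each protein, single windows of these lists carry little weight.

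The sparseness was shared with the stretch next to the arms. This was seen after the first comparison, so the rest was split into an adjacent stretch as long as each arm (chromosome 4 from 9 to 18 Mb and chromosome 10 from 8 to 16 Mb) and a distal remainder. The adjacent stretch held 810 OsbZIP42 peaks, or 47.6 per Mb (44.4 to 51.0), and the arms had 1.06 times its density (0.962 to 1.17). On chromosome 4 alone the arm held more peaks, 398 against 341 (ratio 1.17, 1.01 to 1.35). That interval only just excludes 1 and understates the error, as window counts in this arm had a variance 2.55 times their mean. On chromosome 10 the counts were 461 and 469 (0.983, 0.862 to 1.12). For OsbZIP69 the arms held 31 peaks and the adjacent stretch 30 (ratio 1.03, 0.605 to 1.77). For OsbZIP77 the counts were 45 and 56 (0.804, 0.530 to 1.21). HALO-GST had 7 and 3.

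The difference from the rest was therefore a difference from the distal remainder. There OsbZIP42 reached 99.4 peaks per Mb, and the arms had 0.508 of that density (0.470 to 0.550). The corresponding ratios were 0.455 for OsbZIP69 (0.293 to 0.687) and 0.380 for OsbZIP77 (0.267 to 0.530).

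**Figure D2:**
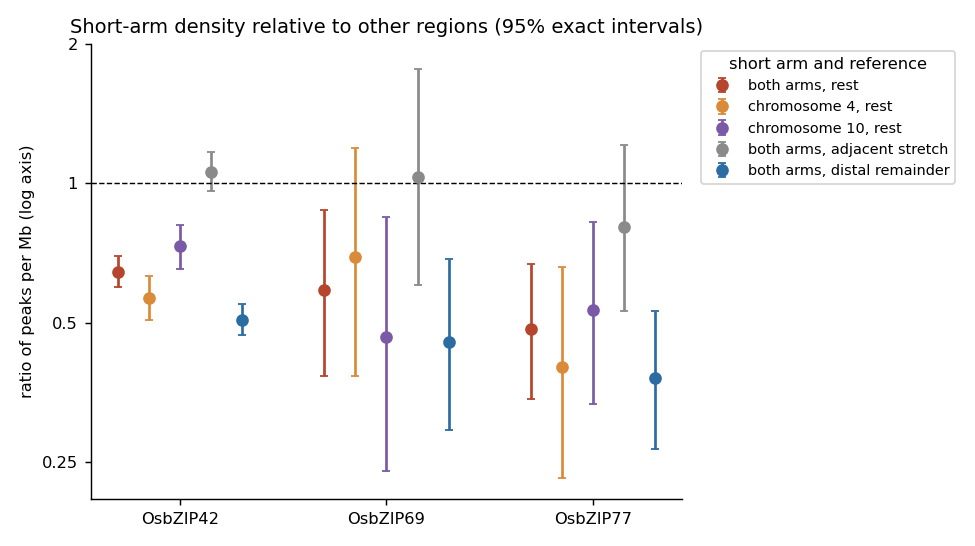
Density of peaks in the short arms divided by that of a reference region, on a log axis, for each bZIP list; points are ratios, bars are exact 95% intervals and the dashed line marks equal density. Against the whole rest and the distal remainder the ratios for both arms together lie below 1, whereas those against the adjacent stretch, also for both arms together, have intervals that include 1.

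The starts of other chromosomes gave a further comparison. Among the first 9 Mb of the 12 chromosomes, chromosome 4 had the fewest OsbZIP42 peaks (398) and the fewest OsbZIP77 peaks (18). Chromosome 9 came next with 410 and 21, and had fewer OsbZIP69 peaks than chromosome 4, 14 against 17. Over the first 8 Mb, chromosome 10 ranked 3 from the bottom with 461 OsbZIP42 peaks, after chromosome 4 with 356 and chromosome 9 with 362. Chromosome 12 followed with 500, and chromosome 1 had the most, 843. The arms thus stood at the low end of the 12 chromosome starts together with that of chromosome 9.

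The short-arm OsbZIP42 peaks were also somewhat weaker. Signal is the authors' value per peak, of unstated unit, and ranks peaks within a list. Its median was 22.6 in the arms (quartiles 16 and 36, highest 369) against 24.5 in the rest (17 and 40, highest 432.9). Of the 859 arm peaks 374, or 43.5% (40.2 to 46.9), exceeded the median of the rest, as did 49% of the whole OsbZIP42 list. The odds of exceeding it were 0.772 times those of the rest (0.662 to 0.901). Both arms were alike in this, with medians of 22.95 on chromosome 4 and 22.3 on chromosome 10. Low signal was not particular to them. The start of chromosome 9 had a lower median still, 22, over its first 9 Mb and over its first 8 Mb.

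Unlike density, the lower signal also set the arms apart from the adjacent stretch, though narrowly. The median there was 24, and 44.2% of arm peaks exceeded it against 49.4% of its own, an odds ratio of 0.813 (0.668 to 0.991). Peaks in the top 10% of the OsbZIP42 list by signal were 60 of 859 in the arms, or 6.98% (5.37 to 8.90), where 10% of the whole list is in that class. In the rest they were 10.2% (9.15 to 11.3), an odds ratio of 0.663 (0.490 to 0.886). For the adjacent stretch it was 7.65%, and the odds ratio of 0.906 had an interval that included 1 (0.615 to 1.33).

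Very strong sites were few in the arms. The arms held 1 of the 100 strongest OsbZIP42 peaks and, counting ties, 5 of 506 and 18 of 1004 in the next tiers. The rest of the 2 chromosomes held 14, 66 and 137. Of the 1004 these were 1.79% and 13.6%, beside 3.03% and 11.5% of the whole OsbZIP42 list. The count of 1 among 100 is too small to say much, and the difference was not tested. The adjacent stretch was not counted separately in these tiers, so the scarcity is not shown to be particular to the arms. For OsbZIP69 the median signal was 27 in the arms and 25 in the rest, and 16 of 31 arm peaks were above the latter (51.6%, 33.1 to 69.8), beside 50.3% of its whole list. For OsbZIP77 the medians were 20 and 22, with 18 of 45 above the latter (40.0%, 25.7 to 55.7), beside 48% of its list. Neither interval separated the arms from 50%.

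**Figure D3:**
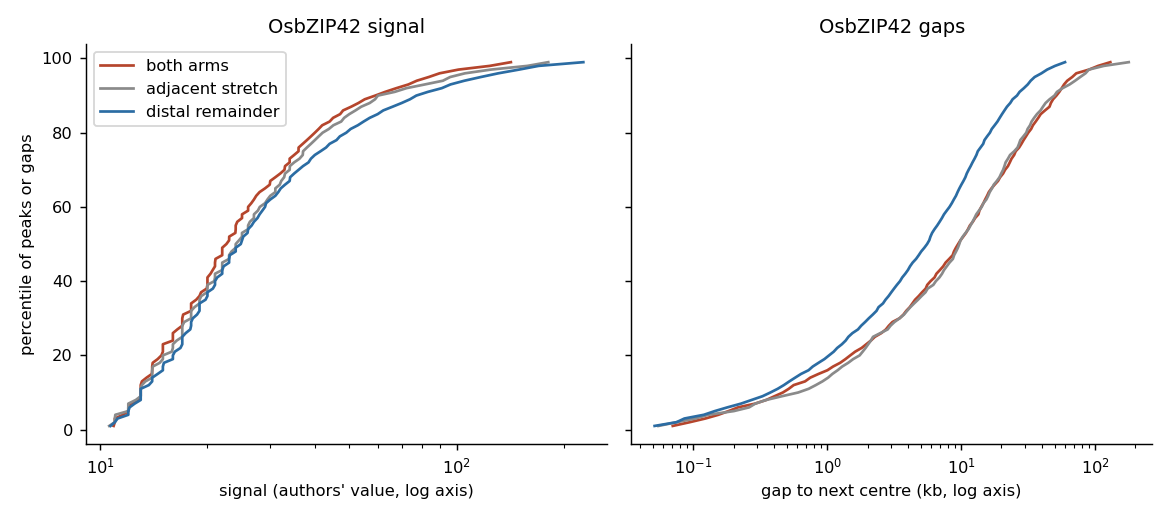
Percentiles of OsbZIP42 signal (left) and of the gap between neighbouring OsbZIP42 centres (right), on log axes, in both arms, the adjacent stretch and the distal remainder. The arm curve for signal lies to the left of the other curves over its middle part, with medians of 22.6, 24 and 24.8, while the arm and adjacent curves for gaps run together, with medians of 9.50 and 9.69 kb against 5.57 kb.

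Gaps between neighbouring OsbZIP42 centres were longer in the arms, in step with the lower density. The median gap was 9.50 kb (quartiles 2.27 and 25.5 kb) over 857 gaps, against 6.23 kb (1.67 and 15.7 kb) in the rest. Multiplied by the density, the median gap was 0.480 of the mean spacing in the arms and 0.488 in the rest as a whole. Within the rest it was 0.462 in the adjacent stretch and 0.554 in the distal remainder, beside 0.514 on the 10 other chromosomes. Relative spacing in the arms was thus closer to that of the adjacent stretch than of the distal remainder. These differences were not tested. Gaps over 100 kb numbered 20 in the arms and 21 in the rest, and took up 16.3% and 9.003% of the length. All 21 of the rest lay in the adjacent stretch, where they took up 22.1% of the length, more than in the arms, and the distal remainder had 0.

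The widest arm gap, of 320.59 kb, lay on chromosome 4 between centres at 7547144 and 7867734, and no peak of any other list fell inside it. The widest on chromosome 10 was 200.643 kb, between 3139965 and 3340608, again with no peak of the other lists. The rest had wider ones, up to 407.692 kb on chromosome 4.

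No excess of closely spaced centres was seen in the arms. Of the gaps, 2.22% (1.34 to 3.44) were at most 100 bp, against 3.31% (2.72 to 3.98) in the rest. Groups joined by gaps of up to 200 bp made up 44 of 810 sites, or 5.43% (3.97 to 7.22), against 6.37% (5.53 to 7.30), and 5 of the 44 held 3 centres. Median gaps of the shorter lists were 484 kb for OsbZIP69 against 202 kb in the rest, and 223 kb for OsbZIP77 against 108 kb.

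The next comparison asked how often an arm site of OsbZIP42 was also a site of the FD proteins. An OsbZIP69 peak lay within 100 bp of 31 of the 859 arm peaks, or 3.61% (2.46 to 5.08), close to the 4.33% of the whole OsbZIP42 list. In the rest it was 4.29% (3.62 to 5.04), and the odds ratio of 0.835 had an interval from 0.543 to 1.25. An OsbZIP77 peak lay within 100 bp of 46, or 5.36% (3.95 to 7.08), where the whole list gave 7.8% and the rest 7.38% (6.51 to 8.33). The first 9 Mb of chromosome 9 were similarly low, at 5.37%.

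The odds ratio for OsbZIP77 was 0.710, with an interval that ended just below 1 (0.501 to 0.987). Over 5 equal bins of OsbZIP42 signal the stratified odds ratio was 0.854 (0.603 to 1.21), an interval that holds both 1 and 0.710. Whether signal accounts for the lower sharing was not tested. The stratified odds ratio for OsbZIP69 was 1.05 (0.693 to 1.61). Either FD protein was found at 60 arm sites, or 6.98% (5.37 to 8.90), against 8.82% of the list, and both at 17, or 1.98% (1.16 to 3.15), against 3.31% of the list. Against the rest the odds ratios were 0.810 (0.596 to 1.09) for either and 0.614 (0.342 to 1.04) for both. Over bins of signal the latter was 0.774 (0.449 to 1.33). All of these intervals include 1.

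**Figure D4:**
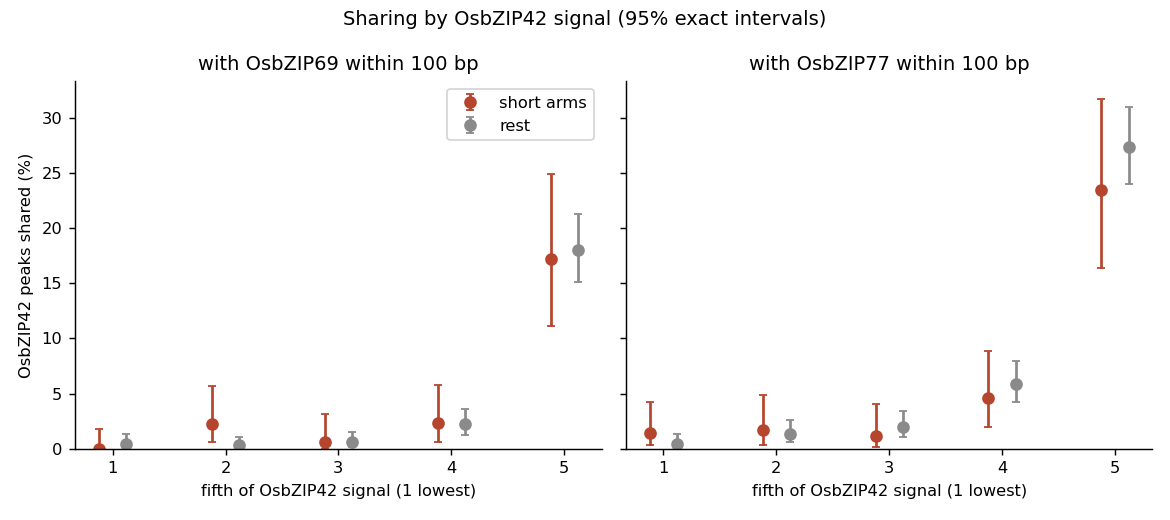
Share of OsbZIP42 peaks with an OsbZIP69 (left) or OsbZIP77 (right) peak within 100 bp, in 5 equal bins of OsbZIP42 signal over the whole list, for the short arms and the rest of chromosomes 4 and 10; bars are exact 95% intervals. In both regions sharing was concentrated in the bin of highest signal, at 17.2% and 18.04% for OsbZIP69 and at 23.4% and 27.4% for OsbZIP77.

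In the bin of highest signal, from 47.3 upwards, 22 of 128 arm peaks were shared with OsbZIP69 (17.2%, 11.1 to 24.9) against 18.04% in the rest. For OsbZIP77 it was 30 of 128 (23.4%, 16.4 to 31.7) against 27.4%. This bin held 14.9% of the arm peaks and 19.7% of those in the rest. The lowest bin, with signals up to 16, held 23.9% of the arm peaks and 19.5% of the rest. There OsbZIP69 was found at 0 of 205 arm peaks, so that a share as high as 1.78% (exact upper limit) remains possible, and OsbZIP77 at 3. Medians of the shared OsbZIP42 peaks were lower over both arms than in the rest, a difference that was not tested. With OsbZIP69 the median signal was 56.6 against 98.3 in the rest, and with OsbZIP77 59.3 against 76.4. The adjacent stretch lay between, at 78 and 67. For OsbZIP77 the difference lay mainly on chromosome 10, with 53.65 in the arm and 74 in its rest. On chromosome 4 the arm had 74.65 and its rest 76.7, and the adjacent stretch was lower than the arm, at 58.5.

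Seen from the shorter lists, nearly every arm peak coincided with OsbZIP42. For OsbZIP69 this held at 29 of 31 (93.5%, 78.6 to 99.2), beside 97.6% of its whole list, and for OsbZIP77 at 43 of 45 (95.6%, 84.9 to 99.5), beside 96.4%. The 4 exceptions were weak. The OsbZIP69 peaks centred at 5359560 on chromosome 10 and at 8922164 on chromosome 4 had signals of 12 and 11, and lay 9481 and 48594 bp from an OsbZIP42 centre. The OsbZIP77 peaks centred at 4814007 and 6290183 on chromosome 4 had signals of 10 and 12, and lay 9071 and 6182 bp away. These 4 fall outside the rule for named sites and were singled out after their values were seen. Of the matched centres, 26 of 29 for OsbZIP69 and 41 of 43 for OsbZIP77 were within 10 bp of the OsbZIP42 centre. These shares, 89.7% and 95.3%, stood beside 89.8% and 87.6% in the rest and 85.9% and 85.4% on the 10 other chromosomes.

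At matched sites the arm peaks of OsbZIP69 paired with lower-ranked OsbZIP42 peaks. The median partner stood at 13.2% of the OsbZIP42 list, against 5.84% in the rest and 10.1% in the adjacent stretch. The median ratio of OsbZIP69 to OsbZIP42 signal was 0.463 over 29 pairs, against 0.280 over 127 pairs in the rest, with an SD of the log2 ratio of 0.78 and 1.06. The adjacent stretch lay between them, at 0.367 over 29 pairs. For OsbZIP77 these ratios were alike, 0.301 over 43 pairs and 0.311 over 217. The scales of the libraries were not matched, so each ratio is compared only with the same ratio elsewhere, and neither difference was tested.

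**Figure D5:**
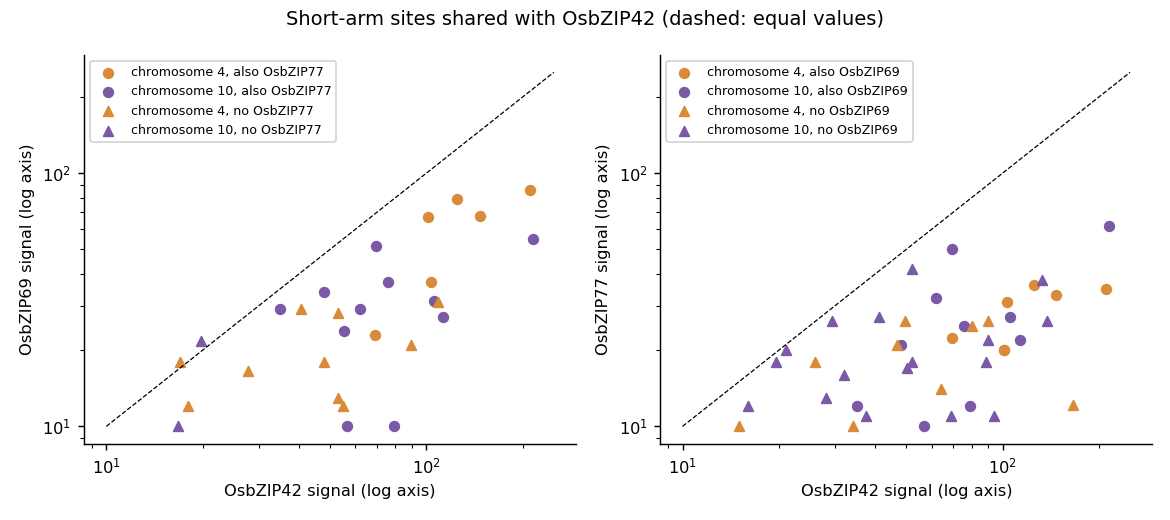
Signal of OsbZIP69 (left, 29 peaks) and OsbZIP77 (right, 43 peaks) against that of the nearest OsbZIP42 peak at short-arm sites, on log axes, by chromosome and by presence of the other FD protein within 100 bp; the dashed line marks equal values. OsbZIP69 exceeded OsbZIP42 at 2 sites and OsbZIP77 at 0, and the 4 strongest OsbZIP69 sites of chromosome 4 were all shared with OsbZIP77.

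OsbZIP69 and OsbZIP77 met less often in the arm of chromosome 4. An OsbZIP77 peak lay within 100 bp of 6 of its 17 OsbZIP69 peaks, or 35.3% (14.2 to 61.7), against 68.1% (56.0 to 78.6) in the rest of that chromosome and 73.6% of the whole OsbZIP69 list. The odds ratio against the rest was 0.260 (0.0698 to 0.880). In the arm of chromosome 10 it was 11 of 14, or 78.6% (49.2 to 95.3), and the odds in the arm of chromosome 4 were 0.159 times these (0.0202 to 0.925). This contrast was noticed after the values were seen, and over both arms together, with 17 of 31 peaks, the odds ratio against the rest was 0.491 (0.204 to 1.19). From the side of OsbZIP77 no such difference showed: 7 of 18 and 10 of 27 of its arm peaks had OsbZIP69, or 38.9% and 37.0%, beside 39.5% of its list.

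The 6 OsbZIP69 peaks of the chromosome 4 arm that were common to all 3 lists included its strongest. The site from 8712539 to 8712739, given as the OsbZIP42 interval, was the strongest OsbZIP69 peak of either arm, at 86, which placed it in the top 5.87% of the OsbZIP69 list. OsbZIP42 had 211 there, rank 256 of its list, and OsbZIP77 had 35. The site from 1158518 to 1158718 ranked below it for OsbZIP42 and OsbZIP69. Its worst standing in the 3 lists was still the best on this arm, the top 10.1% for OsbZIP77 against 11.4%. OsbZIP42 had 125 there, OsbZIP69 had 79 and OsbZIP77 had 36, the last being the highest OsbZIP77 value on the arm. The site from 4308203 to 4308403 had 147, 68 and 33 in the same order. The other 3 common sites, at centres 1451246, 3583234 and 5382632, had OsbZIP69 signals of 23, 37 and 67. The 11 OsbZIP69 peaks of this arm without OsbZIP77 had signals from 11 to 30.9.

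On chromosome 10 a single site led all 3 lists of the arm. It lay from 1207620 to 1207820 by its OsbZIP42 interval, where OsbZIP42 reached 214.7 (rank 245), OsbZIP69 55 (rank 172) and OsbZIP77 62 (rank 19, the top 0.923%). The next OsbZIP77 site, from 7340733 to 7340933, had 50 for OsbZIP77 and 51.5 for OsbZIP69, also second in the arm for each, beside 69.5 for OsbZIP42, in the top 11.1% of that list. The OsbZIP77 peak after these, from 2759213 to 2759413 with a signal of 42, had 52 for OsbZIP42 and no OsbZIP69 peak within 100 bp. The next OsbZIP69 peak, from 4763278 to 4763478, had 37, with 75.9 for OsbZIP42 and 25 for OsbZIP77.

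Some of the strongest OsbZIP42 sites of the arms had little or no FD binding called. The strongest of all lay between 6925865 and 6926065 of chromosome 4, with signal 369 and rank 31. It had the nearest OsbZIP69 centre 81347 bp and the nearest OsbZIP77 centre 454026 bp away. The next but one on that arm, from 4649307 to 4649507 with 166, met an OsbZIP77 peak of 12.1 and no OsbZIP69 peak within 100 bp. On chromosome 10 the OsbZIP42 peaks of rank 491 and 624, from 2837119 to 2837319 with 168 and from 3969404 to 3969604 with 153, had neither. Of the 18 arm peaks ranked among the 1000 strongest with ties, 11 had neither FD protein, 4 had OsbZIP69 and 7 had OsbZIP77. In the rest of chromosomes 4 and 10, 69 of 137 such peaks had neither, and in the whole list 416 of 1004. The difference was not tested.

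The arms held 7 control peaks, none of them within 1000 bp of a bZIP centre. No OsbZIP42 arm peak thus had a HALO-GST centre within 100 bp (0 of 859) or within 1000 bp. In the rest of chromosomes 4 and 10 it was 0 of 3264 within 100 bp and 5 within 1000 bp, and on the 10 other chromosomes 3 and 34 of 24200. By their file names the bZIP lists were called against a negative control, so these counts are not an independent check. With 7 control peaks and a median OsbZIP42 gap of 9.50 kb in the arms, few such pairs could be found there. The counts therefore do not show that control and bZIP peaks avoid each other. The nearest approach in the arms was 1452 bp, at the control peak on chromosome 4 from 6934886 to 6935086. That peak was 9021 bp from the OsbZIP42 site with a signal of 369. The 3 control peaks of the arm of chromosome 4 had signals of 6, the others lying from 2230405 to 2230605 and from 8229100 to 8229300. The 4 on chromosome 10 had 13 (from 2756733 to 2756933) and 8 (starts at 2909067, 6595844 and 7968028). The control peak with 13 lay 2480 bp from the OsbZIP77 peak with a signal of 42.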

How the data were processed

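DAP-seq peaks of 4 libraries, 1 per group as given by the sample titles, were analysed. The submitters' processing notes name Bowtie2 2.2.8 as aligner and, in the sources used here, no genome build. The deposited file names record peak calling with GEM, with a negative control for the 3 bZIP libraries and without one for HALO-GST, and "noMulti", taken to mean that reads with several placements were dropped. The OsbZIP77 name lacks the word for reticulocyte lysate. How names were meant is not stated in the labels. The authors' signal per peak, of unstated unit and scaling, was used as deposited, as were the deposited −log10 q-values, which start at 2.00. Depth is unknown.

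Centres are 1-based, and each interval is 201 bp wide. Chromosomes 4 and 10 were taken to end at the furthest peak end, 35500356 and 23185015. Peaks were shared when centres lay within 100 bp. Density ratios and odds ratios carry exact conditional 95% intervals, shares exact binomial ones, and stratified odds ratios Mantel-Haenszel ones (Python 3.11.15, SciPy 1.17.1). Code was tested on simulated lists. Members, lists and tests were chosen with earlier results of these data known. Named sites are, in each arm, the 3 strongest peaks per bZIP list, the site best placed in all 3, the strongest OsbZIP42 peak in neither FD list, control peaks, the widest gap, the largest group and the peaks at the boundary. Best placed means that the worst of the site's standings, each as a percentage of its list, was the best on the arm. Sequences and gene annotation in the authors' build were not used here.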

Additional observations from a re-analysis of the deposited data

How the results depend on the processing

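Over 14 results, 140 alternatives were run, 116 planned and 24 added after seeing the data, and 112 kept their direction and side of the limit or stayed within the interval. Some of the 112 could not change. No OsbZIP69 or OsbZIP77 peak of the arms or the rest lay within 1000 bp of a control centre. Leaving such peaks out thus returned the main density, signal and gap values of these lists. Merging likewise left the HALO-GST density ratio as it was. Against the adjacent stretch alone, the density ratios became 1.06 (OsbZIP42), 1.03 (OsbZIP69), 0.804 (OsbZIP77) and 2.33 (HALO-GST), the median-gap ratios 0.981 (OsbZIP42) and 1.18 (OsbZIP77), the share of OsbZIP77 peaks above the median signal 55.6%, and the odds ratios of sharing 1.01 (OsbZIP69) and 0.748 (OsbZIP77). On chromosome 4 alone, the OsbZIP69 density ratio was 0.695, its share above the median signal 47.1%, the odds ratios 1.14 (OsbZIP69) and 0.595 (OsbZIP77), and the OsbZIP42 gap ratio 1.80. On chromosome 10 alone, the HALO-GST density ratio was 1.52, the OsbZIP77 odds ratio 0.724, the gap ratio 1.29, and 100% of OsbZIP77 peaks were shared with OsbZIP42. Arms ending 1 Mb earlier gave an OsbZIP77 odds ratio of 0.742, and 1 Mb later 0.799, with 48.5% of OsbZIP69 peaks above the median signal. The OsbZIP77 odds ratio was 0.738 with merged neighbours, 0.722 with nearest peaks only and 0.854 over bins of signal, all with intervals including 1; that of OsbZIP69 was 1.05 over bins. Keeping the 50% of peaks with the best q-values gave a gap ratio of 1.99 for OsbZIP42 and 100% sharing for both FD lists, on fewer peaks by construction. Other causes were not tested.

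With each of the 17 arm windows left out in turn, a step chosen after seeing the data, the density ratios stayed from 0.623 to 0.665 (OsbZIP42), 0.545 to 0.626 (OsbZIP69) and 0.446 to 0.514 (OsbZIP77), with all intervals below 1. The OsbZIP77 odds ratio ranged from 0.651 to 0.769, and leaving out any of 8 windows (chromosome 4 from 0 to 3 and 6 to 8 Mb, chromosome 10 from 0 to 1 and 6 to 8 Mb) made its interval include 1. No paired analysis was possible because there was 1 library per protein, which also left no replicate to omit. With depth unknown, a site missing from the OsbZIP69 or OsbZIP77 list is not shown to be unbound.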

Other observations

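Counts within each arm were compared after the values were known, with no test. On chromosome 4 the first 3 Mb held 149 OsbZIP42 peaks, 6 OsbZIP69 peaks and 2 OsbZIP77 peaks. The next 3 Mb held 133, 6 and 12, and the last 3 Mb held 116, 5 and 4. In the arm of chromosome 10 the outer 4 Mb held 266, 9 and 18, and the inner 4 Mb 195, 5 and 9.

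The largest group of OsbZIP42 centres on the arm of chromosome 10 had 3 members, at 3968691, 3968747 and 3968911, with signals of 79.8, 73.2 and 22. The third strongest OsbZIP42 peak of that arm, centred at 3969504, lay beyond them. No OsbZIP69 or OsbZIP77 peak was within 100 bp of the group. On chromosome 4 the largest group with the highest summed signal was a pair at 8682694 and 8682721, with signals of 156.3 and 52.7, also with neither FD protein. OsbZIP77 was listed at centres 5382631 and 5382632 on chromosome 4, 1 bp apart and each with a signal of 20, so its 18 peaks on that arm include a pair next to the same OsbZIP42 centre.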
